A study of Mus musculus with 7 samples.

Results

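The genes described here are 9 cathepsins, Ctsl, Ctss, Ctsk, Ctsb, Ctsc, Ctsh, Ctsz, Ctsd and Ctse, and the gene of the related lysosomal protease legumain, Lgmn. They were taken by gene symbol from a table of 55536 genes, and all 10 were found and tested. Their RNA was measured by SMART-seq, which copies full-length transcripts from small numbers of cells, in medullary thymic epithelial cells (mTECs) of the mouse, sorted from thymus by EPCAM. The 4 libraries with the labels 46, 48, 75 and 77 came from Cre(-) Ikzf1fl/fl Pou2f3-/- animals and the 3 with the labels 45, 76 and 80 from Cre(+) Ikzf1fl/fl Pou2f3-/- animals, called Cre-negative and Cre-positive below. Both groups therefore carry floxed Ikzf1, which encodes the transcription factor Ikaros, and lack Pou2f3, the factor that tuft cells require. The series asks what Ikaros does to mTEC expression where tuft cells are absent. The sources used here do not give the Cre driver, the floxed part of Ikzf1 or the age of the animals. Whether each library is its own animal is not said in the labels, and the p-values below therefore reflect how far these libraries scatter, some of which may be technical. Values by library follow the order Cre-negative 46, 48, 75, 77 and then Cre-positive 45, 76, 80.

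Cathepsins are proteases of the endosome and lysosome that are made as inactive precursors and work in an acidic compartment. In antigen-presenting cells they degrade endocytosed protein and cut the invariant chain (Cd74) from MHC class II molecules, so that peptides can bind. Ctsl is known for this cleavage in cortical thymic epithelium and Ctss for it in dendritic cells, B cells and macrophages. Endopeptidases cut within a protein chain, whereas exopeptidases remove residues from its ends. Stefins and cystatins are the inhibitors of the cysteine cathepsins.

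The catalytic residue divides the cathepsins into cysteine and aspartic proteases, and the coding sequence around it is shown here. Each line below is 39 bases of the coding strand of a GENCODE M21 transcript (mouse build GRCm38), with the codon of the catalytic residue in capitals. That residue is cysteine in the first 7 members and the first catalytic aspartate in Ctse.
Ctsl: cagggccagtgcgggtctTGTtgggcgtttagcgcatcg
Ctss: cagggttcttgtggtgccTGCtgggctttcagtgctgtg
Ctsk: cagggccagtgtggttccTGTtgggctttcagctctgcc
Ctsb: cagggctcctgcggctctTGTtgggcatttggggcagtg
Ctsc: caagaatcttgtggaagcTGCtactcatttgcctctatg
Ctsh: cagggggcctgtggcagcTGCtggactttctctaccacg
Ctsz: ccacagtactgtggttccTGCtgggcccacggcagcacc
Ctse: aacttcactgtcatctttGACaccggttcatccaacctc

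Of the 39 positions, Ctsk and Ctsb each shared 30 with Ctsl, Ctss shared 24, Ctsh 20, Ctsz 18 and Ctsc 17. Such counts describe these short windows and not how related the genes are. The windows of Ctsl at chr13:64367057-64367862 (minus strand), Ctss at chr3:95543160-95545368 (plus strand) and Ctsc at chr7:88302297-88308047 (plus strand) cross a splice junction, so their genomic spans exceed 39 bases. That of Ctse at chr1:131663353-131663391 (plus strand) lies within 1 exon. Ctsk and Ctss are neighbours on chromosome 3, 17423 bases apart.

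Totals ran from 9815958 to 12599078 reads per library. Genes with at least 10 reads numbered 19417 to 20467 in the Cre-negative libraries and 17169 to 18014 in the Cre-positive libraries, which did not overlap. Ikzf1 had 1158.5 ± 42.7 normalized counts (SD, n = 4) in the Cre-negative and 1605 ± 267 (SD, n = 3) in the Cre-positive libraries and was not called (limma, adjusted p = 0.0916). A whole-gene count does not show whether a floxed exon was deleted. The mTEC regulator Aire was lower in Cre-positive libraries (log2 fold change -0.56, limma adjusted p = 0.0395), a call lost without any one of Cre-negative 75, Cre-negative 77, Cre-positive 45 or Cre-positive 76 (adjusted p 0.0921 to 0.133). Epcam, the sorting marker, had 3883 to 5099 normalized counts in Cre-negative and 5598 to 6771 in Cre-positive libraries. Cre-negative 48 was the only library with appreciable reads of Y-linked genes. Among the Cre-negative libraries it was also the highest for 5 members (Ctsk, Lgmn, Ctsb, Ctsd and Ctse) and the lowest for 3 (Ctss, Ctsh and Ctsz).

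Between the genotypes, 3 of the 10 members were called as changed. The endopeptidase Ctsl rose, whereas the exopeptidase Ctsc and the aspartic protease Ctse fell, and the other 7 members did not pass the test. A gene was called at a Benjamini-Hochberg adjusted p under 0.05 in limma over the 22878 genes whose mean normalized count was at least 5. That fit called 13.8% of all tested genes, 4.66% higher and 9.11% lower in Cre-positive libraries, against 1 member higher and 2 lower. The libraries of the genotypes did not overlap for the same 3 members, compared with 25.3% of all tested genes. The median log2 fold change was -0.39 over the members, 8 of which were below 0, and -0.10 over all tested genes. Fold changes are Cre-positive minus Cre-negative on the log2(normalized count + 1) scale. In bulk libraries, fewer cells of a type and less RNA per cell cannot be told apart.

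**Figure D1:**
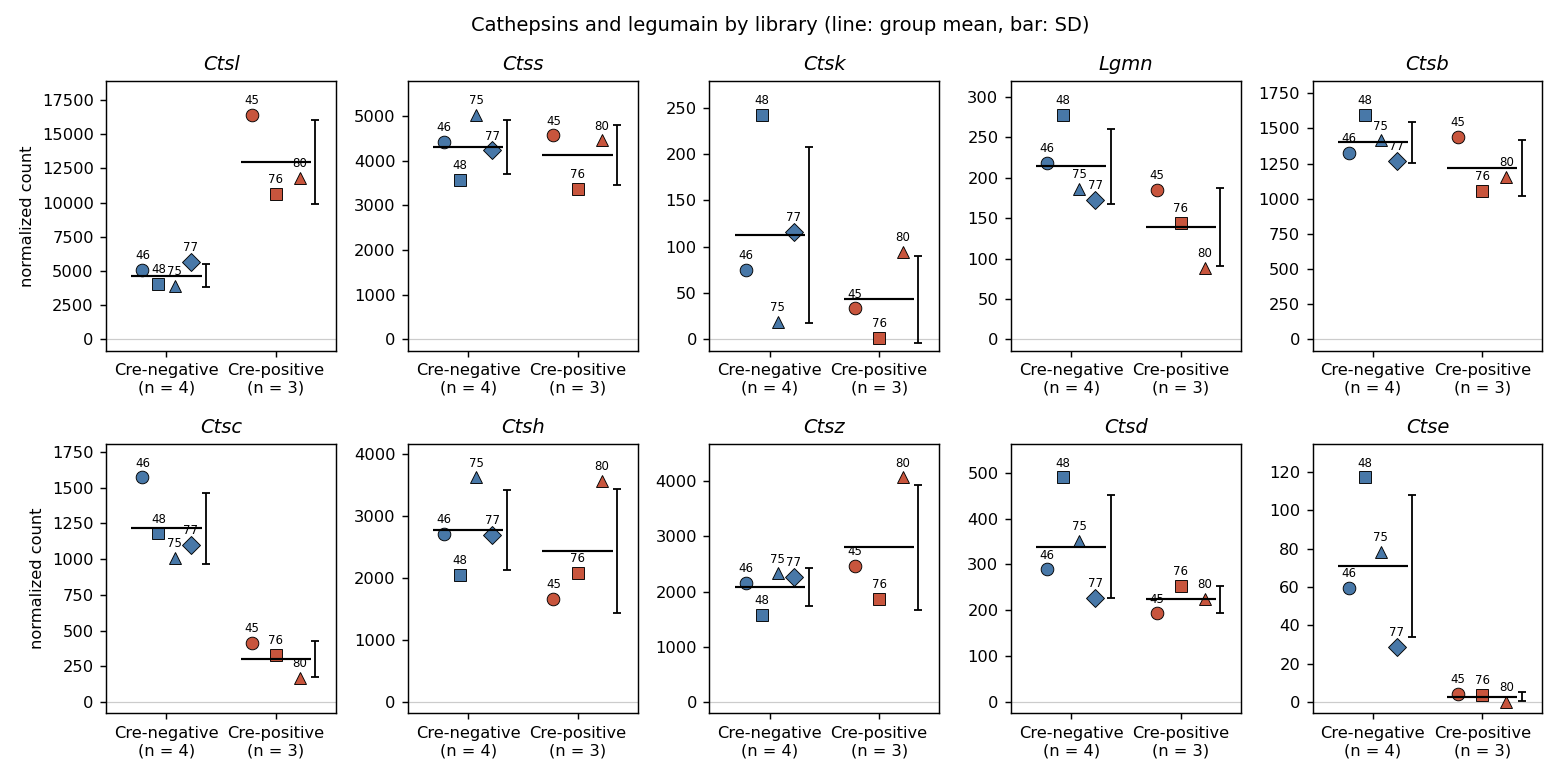
Normalized counts (y axis, linear, a separate scale per gene) of the 10 members in each of the 4 Cre-negative and 3 Cre-positive libraries. Each point is 1 library, the line is the group mean and the bar its SD. The groups are separate for Ctsl (higher in Cre-positive) and for Ctsc and Ctse (lower), and overlap for the other 7 genes.

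Ctsl (ENSMUSG00000021477, chr13:64359337-64370890, minus strand) encodes cathepsin L, a cysteine endopeptidase. Normalized counts were 5054.1, 4054.2, 3905.2 and 5644.0 in the Cre-negative libraries, against 16412.8, 10648.1 and 11795.3 in the Cre-positive ones. Every Cre-positive library lay above every Cre-negative one, with no value between 5644.0 and 10648.1. The means were 4664 ± 829 (SD, n = 4) and 12952 ± 3051 (SD, n = 3). The log2 fold change was 1.46 (SE 0.19, 95% interval 1.06 to 1.87), a 2.76-fold rise (limma, adjusted p = 3.58e-04). Ctsl stayed called in all 17 alternative fits, with log2 fold changes from 1.26 to 1.59.

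Ctss (ENSMUSG00000038642, chr3:95526786-95556403, plus strand) encodes cathepsin S, an endopeptidase that stays active at neutral pH. It had 4409.6, 3568.6, 5026.7 and 4227.6 normalized counts in the Cre-negative libraries, against 4564.3, 3363.8 and 4452.2 in the Cre-positive ones. The groups overlapped throughout, with the lowest library Cre-positive and the highest Cre-negative. The fitted log2 fold change was -0.06 (SE 0.17, 95% interval -0.43 to 0.30, limma adjusted p = 0.843). The interval of Ctss lay entirely below that of Ctsl. Without Cre-negative 75 or Cre-positive 76 the sign turned, to 0.01 and 0.08.

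The log2 ratio of Ctsl to Ctss within a library does not depend on how libraries are scaled. It was 0.20, 0.18, -0.36 and 0.42 in the Cre-negative libraries, against 1.85, 1.66 and 1.41 in the Cre-positive ones. The Cre-positive libraries thus held 2.65 to 3.60 Ctsl counts for each Ctss count, against 0.777 to 1.34 in the Cre-negative libraries, and the groups were separate. The mean log2 ratios of 0.11 ± 0.33 (SD, n = 4) and 1.64 ± 0.22 (SD, n = 3) differed by 1.53 (two-sided exact permutation test, p = 0.0286, the smallest of the 35 splits). This ratio takes up the change of Ctsl already described and is not separate from it.

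Ctsk (ENSMUSG00000028111, chr3:95499256-95509362, plus strand) encodes cathepsin K, the collagen-degrading protease of osteoclasts. It had 75.4, 242.3, 18.9 and 115.8 normalized counts in the Cre-negative libraries, against 33.4, 2.0 and 94.5 in the Cre-positive ones. Values ranged widely inside both groups, which overlapped. The log2 fold change of -1.92 had an SE of 1.04 and a 95% interval from -4.17 to 0.34 (limma, adjusted p = 0.251). The estimate was -0.50 without Cre-positive 76, -3.00 without Cre-positive 80 and -1.39 without Cre-negative 48, so single libraries set its size. The 8 osteoclast markers summed to 440.5 to 904.2 normalized counts in Cre-negative and 349.0 to 449.5 in Cre-positive libraries, which overlapped. Of the 6 that were tested, 2 were lower and 0 higher, against 9.11% and 4.66% of all tested genes. Their median log2 fold change was -1.25. The 2 lower ones were the calcitonin receptor gene Calcr (-4.05, limma adjusted p = 0.0142) and Nfatc1 (-0.88, adjusted p = 0.0488). Calcr ran from -4.83 to -2.64 as single libraries were left out, with Cre-positive 45, 76 and 80 each moving it by over 1.5 times, and the Nfatc1 call was lost without any one library (adjusted p 0.0545 to 0.139). The part of osteoclast-like expression in the Ctsk values was not tested.

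Lgmn (ENSMUSG00000021190, chr12:102394084-102439813, minus strand) encodes legumain, which cuts after asparagine and can mature other cathepsins. It had 218.7, 277.8, 186.5 and 172.7 normalized counts in the Cre-negative libraries, against 185.0, 144.2 and 88.2 in the Cre-positive ones. Cre-positive 45 lay among the Cre-negative libraries and the other two below them. Its log2 fold change was -0.66 (SE 0.32, 95% interval -1.34 to 0.03, limma adjusted p = 0.196), and -0.36 without Cre-positive 80.

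Ctsb (ENSMUSG00000021939, chr14:63122462-63145923, plus strand) encodes cathepsin B, which removes dipeptides from the carboxyl end and can also cut internally. It had 1327.4, 1597.7, 1415.2 and 1267.5 normalized counts in the Cre-negative libraries, against 1442.0, 1055.5 and 1158.5 in the Cre-positive ones. Cre-positive 45 again lay among the Cre-negative values and the other two below them. The log2 fold change was -0.21 (SE 0.17, 95% interval -0.58 to 0.17, limma adjusted p = 0.469). Exons of Fdft1 on the opposite strand cover 774 of the 4743 bases of the Ctsb transcript, and without a stated strand setting reads there could belong to either gene.

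Ctsc (ENSMUSG00000030560, chr7:88278085-88310888, plus strand) encodes cathepsin C, or dipeptidyl peptidase I, which activates the serine proteases of granules in cytotoxic and myeloid cells. It had 1570.4, 1179.0, 1010.8 and 1100.1 normalized counts in the Cre-negative libraries, against 411.7, 330.5 and 167.1 in the Cre-positive ones. Every Cre-positive library was below every Cre-negative one, with no value between 411.7 and 1010.8. The means were 1215 ± 247 (SD, n = 4) and 303.1 ± 125 (SD, n = 3). The fitted log2 fold change was -2.08 (SE 0.28, 95% interval -2.69 to -1.46), a 4.22-fold fall (limma, adjusted p = 6.08e-04). Ctsc stayed called in all 17 alternative fits, with log2 fold changes from -2.34 to -1.70.

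Ctsh (ENSMUSG00000032359, chr9:90054152-90076089, plus strand) encodes cathepsin H, an aminopeptidase. It had 2716.8, 2057.7, 3627.7 and 2705.7 normalized counts in the Cre-negative libraries, against 1665.6, 2093.0 and 3566.7 in the Cre-positive ones. Both groups spread over much the same range. Its log2 fold change was -0.23 (SE 0.25, 95% interval -0.77 to 0.31, limma adjusted p = 0.589), and its sign turned to 0.0056 without Cre-positive 45.

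Ctsz (ENSMUSG00000016256, chr2:174427493-174439039, minus strand) encodes cathepsin Z, a carboxypeptidase also called cathepsin X. It had 2160.4, 1582.9, 2327.8 and 2271.4 normalized counts in the Cre-negative libraries, against 2469.2, 1866.6 and 4063.9 in the Cre-positive ones. Cre-positive 80 stood above all other libraries and Cre-positive 76 lay among the Cre-negative ones. The log2 fold change was 0.36 (SE 0.24, 95% interval -0.15 to 0.88, limma adjusted p = 0.349), and 0.06 without Cre-positive 80.

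Ctsd (ENSMUSG00000007891, chr7:142375911-142388038, minus strand) encodes cathepsin D, the common aspartic protease of lysosomes. It had 289.1, 489.5, 351.3 and 226.4 normalized counts in the Cre-negative libraries, against 193.3, 253.4 and 225.3 in the Cre-positive ones. The groups overlapped at their edges, since Cre-positive 76 exceeded Cre-negative 77. The fitted log2 fold change was -0.55 (SE 0.28, 95% interval -1.15 to 0.06, limma adjusted p = 0.224), and -0.35 without Cre-negative 48. In GENCODE M21 the readthrough gene Gm49369 shares 808 of the 2127 bases of the Ctsd transcript on the same strand and had 0 reads in every library. Where a counting rule drops reads shared by overlapping genes, the Ctsd level would be too low in all libraries. The sources used here do not give that rule.

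Ctse (ENSMUSG00000004552, chr1:131638306-131675505, plus strand) encodes cathepsin E, an aspartic protease of endosomes known from gastric epithelium and from antigen-presenting cells. It had 59.5, 117.2, 78.4 and 28.9 normalized counts in the Cre-negative libraries, against 4.2, 4.0 and 0.0 in the Cre-positive ones. In reads, these were 71, 119, 87 and 28 against 4, 4 and 0. The count of 0 in Cre-positive 80 allows up to 3 reads, or 0.258 CPM (reads scaled to the library's total), compared with 2.85 to 12.1 CPM in the Cre-negative libraries. These limits cover counting error only. Every Cre-positive library was below every Cre-negative one. The means were 71.0 ± 36.9 (SD, n = 4) and 2.73 ± 2.37 (SD, n = 3), and the log2 fold change was -4.44 (SE 0.80, 95% interval -6.17 to -2.71, limma adjusted p = 0.00323). Because the Cre-positive values are near 0, that size depends on the count added before taking logs: it was -3.20 with 5 added and -4.86 with 0.5 added. It was -3.65 without Cre-positive 80. Ctse reached the minimum mean for testing through its Cre-negative values alone, and it was called in all 16 alternative fits that tested it.

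**Figure D2:**
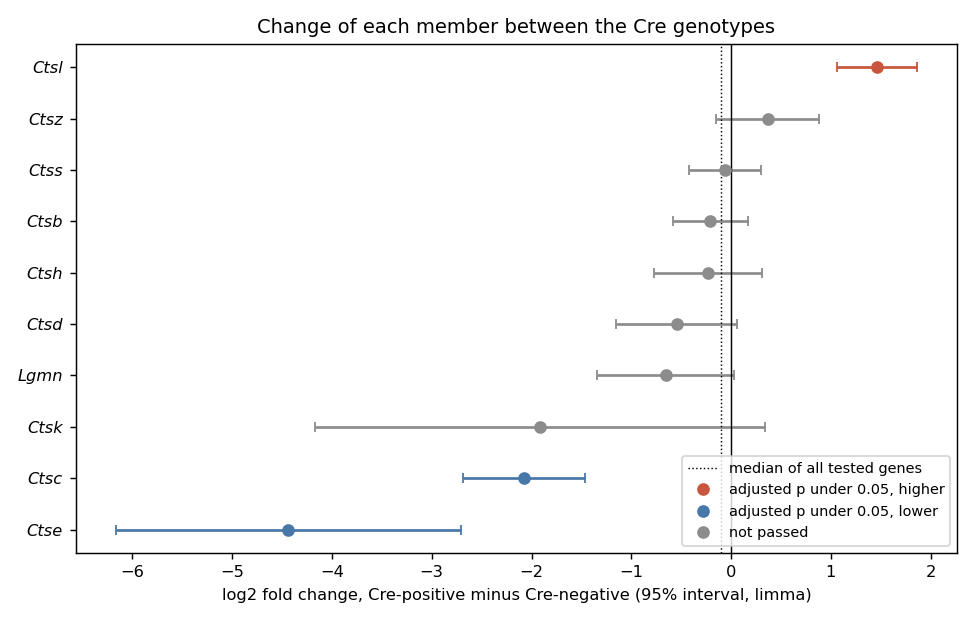
Log2 fold change (x axis, Cre-positive minus Cre-negative) of each member with its 95% interval from limma, and the median of all tested genes as a dotted line. Ctsl at 1.46 is the only called gene to the right, Ctsc at -2.08 and Ctse at -4.44 are called to the left, and the intervals of the other 7 members include 0.

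The authors' deposited table gave log2 fold changes of 1.47 for Ctsl (adjusted p = 1.10e-08), -2.0 for Ctsc (adjusted p = 8.96e-09) and -4.70 for Ctse (adjusted p = 1.60e-07), turned here to Cre-positive over Cre-negative. The other members were above 0.05 in the authors' deposited table, except that Ctsh has no p-value there.

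Levels of different genes can be compared only per length. On the RPKM scale, reads scaled to a principal transcript's length in kilobases and to the library's total, the Cre-negative means were 309.6 ± 31.9 for Ctss, 231.2 ± 40.9 for Ctsl, 166.9 ± 33.3 for Ctsh and 140.9 ± 19.1 for Ctsz (SD, n = 4), and each overlapped its neighbour in this order. Ctsc at 47.6 ± 9.15 RPKM and Ctsb at 29.0 ± 4.0 RPKM (SD, n = 4) formed the next steps without overlap. Ctsd, Lgmn, Ctsk and Ctse followed with means of 15.7, 10.6, 7.51 and 3.29 RPKM, each overlapping the next.

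In the Cre-positive libraries the order changed at the top. Ctsl led at 556.5 ± 125 RPKM (SD, n = 3), and its lowest library was above the highest library of Ctss at 257.7 ± 35.2 RPKM (SD, n = 3). Ctsz at 163.8 and Ctsh at 127.6 RPKM followed, and Ctss, Ctsz and Ctsh each overlapped the next. Ctsb at 21.8 RPKM now stood above Ctsc at 10.4 RPKM without overlap, the reverse of their Cre-negative order on this scale. The lowest were again Ctsd, Lgmn, Ctsk and Ctse, with means of 8.95, 5.95, 2.38 and 0.110 RPKM, and from Ctsc down each overlapped the next. With coding length in place of transcript length, Ctsl at 454.8 RPKM already stood above Ctss at 411.3 RPKM in the Cre-negative libraries, with overlap, and Ctsb above Ctsc in both groups.

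As a share of the 10 members' summed RPKM, Ctsl made up 18.8% to 28% in the Cre-negative and 40.4% to 55.1% in the Cre-positive libraries. Ctss made up 30.5% to 35.1% and 22.2% to 22.5%, although its own level did not pass the test, and Ctsc 3.84% to 6.16% and 0.452% to 1.2%. Such shares depend on each other, so a rise of one lowers the rest. The summed RPKM were 875 to 1007 in the Cre-negative and 966 to 1271 in the Cre-positive libraries, which overlapped.

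**Figure D3:**
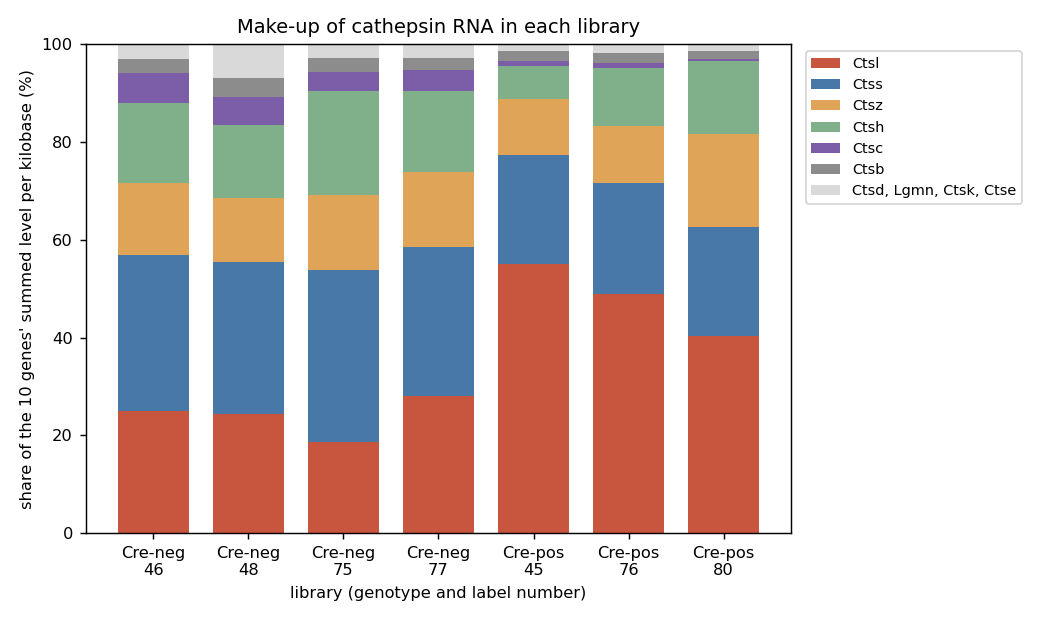
Share (y axis, percent) of each member in the summed RPKM of the 10 members, as a stacked bar for each of the 4 Cre-negative and 3 Cre-positive libraries. The Ctsl part is 18.8% to 28% in the Cre-negative bars and 40.4% to 55.1% in the Cre-positive bars.

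RefSeq promoters (build GRCm38.p6, 250 bases before to 50 after a start) matched 7 members with 8 entries, Ctsb, Ctse and Ctsh having none. They were searched on both strands for CACGTG, the E-box, the longer CLEAR palindrome of lysosomal genes, which contains an E-box, and TGGGAA, the core that Ikaros proteins bind. Of 32851 promoters of that length, 7.15% held CACGTG, 0.326% held the CLEAR palindrome and 25.6% held TGGGAA. The E-box letters were found in the windows of Ctsd (2 matches), Ctsl (1) and Lgmn (1, in one of its 2 entries) and in none of those of Ctsc, Ctsk, Ctss and Ctsz. TGGGAA and the CLEAR palindrome were in none of the 8 windows. A match, or none, describes the letters of a window and not binding. The Ctsl entry begins 214 bases upstream of the start of its principal GENCODE M21 transcript, and the entries of Ctsd and Lgmn that hold a match begin 211 and 721 bases downstream of theirs. The other Lgmn entry, 85 bases downstream, holds none. The 250 bases before the start of Ctsc, the called member whose RefSeq and GENCODE starts coincide, are shown as a promoter in which none of these motifs was found (chr7:88277835-88278084, plus strand).
Ctsc promoter: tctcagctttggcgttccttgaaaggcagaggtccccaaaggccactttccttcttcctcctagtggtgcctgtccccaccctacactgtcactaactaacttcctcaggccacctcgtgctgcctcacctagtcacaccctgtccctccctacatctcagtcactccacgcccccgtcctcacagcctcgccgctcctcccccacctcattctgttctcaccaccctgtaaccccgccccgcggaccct

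Among inhibitors of the cysteine cathepsins, several stefins fell. Of 10 cystatins and stefins, 8 were tested, 4 fell and none rose. The median log2 fold change of these 8 was -2.98, against -0.10 for all tested genes, of which 9.11% were called lower. Stfa1 and Csta1 had Cre-positive means of 0 and 4.5 normalized counts. They reached the minimum mean of 5 through their Cre-negative values alone, so the count and the median rest in part on genes near 0. The 4 that fell were the stefins Stfa3 (-3.43, limma adjusted p = 1.79e-04), Stfa2 (-4.81, adjusted p = 0.00172), Csta1 (-4.45, adjusted p = 0.00280) and Stfa1. Stfa3 had 546.4, 502.3, 319.8 and 599.7 normalized counts in the Cre-negative libraries, against 54.3, 22 and 68.5 in the Cre-positive ones. Stfa1 had 274.0, 266.9, 34.2 and 130.3 normalized counts in the Cre-negative libraries and 0 in all 3 Cre-positive ones. Its log2 fold change was -7.09 (95% interval -8.83 to -5.34, limma adjusted p = 1.85e-04). With 3 reads over the Cre-positive group as the floor, the Cre-negative mean of 176.35 gave a bound of 171.5-fold lower. This bound covers counting error only and ignores how widely the values behind that mean differ. These stefin genes are close copies of each other, so reads may be split among them. The Cre-positive counts of Stfa1, Stfa2 and Csta1 are near 0. The log2 fold change of Stfa2 was -5.84 without Cre-positive 45 and -4.14 without Cre-positive 80, and that of Csta1 -5.33 without Cre-positive 45. The inhibitors with the highest counts, not scaled to length and singled out after their values were seen, were not called. Cstb had 21528 ± 1559 (SD, n = 4) and 23789 ± 2408 (SD, n = 3) normalized counts, and Cst3 9579 ± 2615 and 11809 ± 6200.

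Among the other lysosomal proteases, 1 gene was called. Of 6 lysosomal peptidases outside the cathepsin family name, Napsa, an aspartic protease of lung and kidney related to Ctsd and Ctse, rose and none fell, and the median log2 fold change was 0.20. Napsa had 119.0, 84.7, 289.2 and 191.3 normalized counts in the Cre-negative libraries, against 671.9, 688.0 and 1075.4 in the Cre-positive ones, without overlap. Its log2 fold change was 2.36 (SE 0.37, limma adjusted p = 0.00138). Of the 14 other cathepsins, 9 were tested and 0 were called by limma. The median log2 fold change of these 9 was -1.80. Among them, Ctsg, Ctsj, Ctsr and Ctsll3 had Cre-positive means of 2.33, 2.07, 3.1 and 1.0 normalized counts. They reached the minimum mean of 5 through their Cre-negative values alone, so that median rests in part on genes near 0. Ctsa was at 0.05. Fits with DESeq2, with library total scaling and without Cre-negative 75 each called 1 of the 9 lower, and the fit without Cre-positive 45 called 2. Ctso, which had the highest counts of the 9 without scaling to length, had 874.0, 826.4, 693.7 and 725.8 normalized counts in the Cre-negative libraries. In the Cre-positive ones it had 751.3, 430.6 and 263.7 (limma, adjusted p = 0.0819).

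MHC class II genes, whose products the cathepsins serve, were mostly not called. Of 11 tested, 0 rose and 1 fell, and their median log2 fold change was -0.12. H2-Ob, a chain of the MHC class II modulator DO, had 902.6 to 1042.5 normalized counts in Cre-negative and 438.1 to 653.9 in Cre-positive libraries (log2 fold change -0.91, limma adjusted p = 0.00740). Cd74, the invariant chain and a substrate of Ctsl and Ctss, was singled out for that role. It had 77678.1, 63987.3, 171178.3 and 135413.2 normalized counts in the Cre-negative libraries, against 117830.0, 106037.9 and 212019.2 in the Cre-positive ones (log2 fold change 0.42, limma adjusted p = 0.434).

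Genes that deliver proteases to the lysosome or build its membrane gave 2 lower and 0 higher calls of 13, and their median log2 fold change was 0.13. Igf2r, the large mannose 6-phosphate receptor that carries cathepsin precursors to endosomes, had 418.2, 414.7, 414.4 and 449.7 normalized counts in the Cre-negative libraries, against 179.7, 124.2 and 221.1 in the Cre-positive ones (log2 fold change -1.31, SE 0.25, limma adjusted p = 0.00413). The membrane protein gene Lamp2 fell by 0.61 on the log2 scale (limma, adjusted p = 0.0173), a call lost without Cre-positive 80 (adjusted p = 0.0646). Of 15 genes of the proton pump that acidifies lysosomes, 1 was higher and 0 lower at a median of -0.03, the higher one being Atp6v1f (log2 fold change 0.50, limma adjusted p = 0.0392). The Atp6v1f call was lost without any one of the 7 libraries (adjusted p 0.0519 to 0.114).

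Of 29 lysosomal hydrolases that are not proteases, 2 were higher and 2 lower, and their median log2 fold change was -0.08. Ppt1, which removes fatty acids from proteins, had 373.8 to 517.1 normalized counts in Cre-negative and 703.0 to 931.1 in Cre-positive libraries (log2 fold change 0.87, limma adjusted p = 0.0123). Gusb, Ids and Glb1 were also called, at log2 fold changes of 0.61, -0.84 and -0.98 (limma, adjusted p 0.0469, 0.0195 and 0.0285). Each lost its call when some single libraries were left out. For Gusb these were Cre-negative 46, 48 or 77 or Cre-positive 76 or 80 (adjusted p 0.0813 to 0.178). For Ids they were Cre-negative 46 or Cre-positive 45 or 80 (adjusted p 0.0522 to 0.0658). For Glb1 they were every library but Cre-negative 77 (adjusted p 0.0549 to 0.0832). Over the 7 lists, 4 of 91 tested genes were called higher (4.4%) and 9 lower (9.89%), near the 4.66% and 9.11% of all tested genes.

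**Figure D4:**
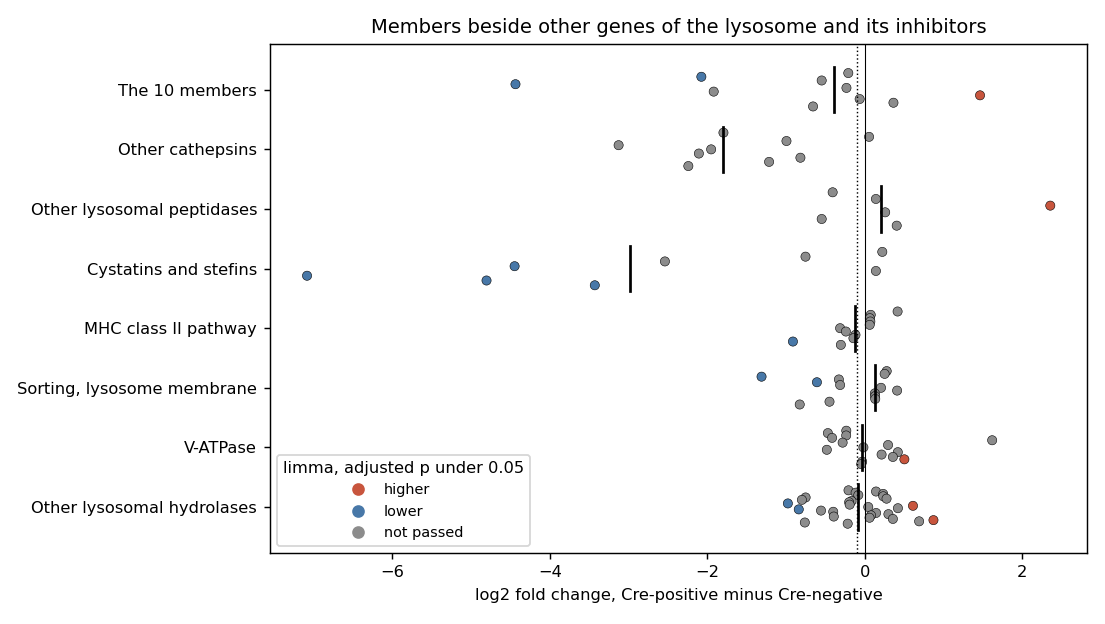
Log2 fold change (x axis, Cre-positive minus Cre-negative) of each tested gene, with the 10 members in the top row and the 7 lists of related genes below. Each point is 1 gene, coloured by its call in limma, and the dotted line is the median of all tested genes. The called stefins lie at -3.43 and below, and Napsa at 2.36 is the called gene farthest to the right.

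Cells other than mTECs also express cathepsins, so marker lists of other cell types were read in the same libraries. These lists were chosen with earlier results of these data known. For comparison with the counts below, 4.66% of all tested genes were higher, 9.11% lower and 25.3% without overlap between the genotypes. The 12 macrophage markers summed to 6070 to 7563 normalized counts in Cre-negative and 7897 to 11825 in Cre-positive libraries, without overlap. Most of that sum was Lyz2, with 4491.6 to 6130.3 and 6925.8 to 11146.5 normalized counts. The sum therefore follows Lyz2, whereas the median log2 fold change of the 12 markers was -0.51. Lyz2 was called higher (limma, adjusted p = 0.0328), and not without Cre-negative 46, 48 or 77 or Cre-positive 80 (adjusted p 0.0650 to 0.128). Adgre1 (log2 fold change -2.91, limma adjusted p = 8.19e-04) and Itgam (-2.30, adjusted p = 0.00531) were lower, and none of the other 9, Csf1r and Cd68 among them, was called. The macrophage sum, Lyz2, Adgre1 and Itgam differed with genotype, as Ctsl and Ctsc did, but in differing directions. Their part in the Ctsl and Ctsc results was not tested.

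The 10 dendritic cell markers summed to 1045 to 1669 normalized counts in Cre-negative and 659.9 to 1236 in Cre-positive libraries, with overlap, and 1 of them, Cd209a, was lower (2 without Cre-positive 45). Cd209a reached the minimum mean for testing through its Cre-negative values alone. Of 9 markers of cortical thymic epithelium, where Ctsl is best known, 4 were lower and 0 higher, with sums of 21575 to 25854 and 15767 to 22804. That count of 4 was 2 without Cre-negative 46 or Cre-positive 80 and 1 without Cre-positive 76. Of 11 mTEC markers, 10 were tested, 2 were higher and 3 lower, and Ccl21a was at 0 in every library. The lower ones were Cd80 (log2 fold change -1.87, limma adjusted p = 2.51e-04), Cldn4 (-1.56, adjusted p = 0.00125) and Aire, whereas the keratin gene Krt14 was higher (1.51, adjusted p = 0.00132). The other higher one, Krt5 (adjusted p = 0.0475), lost its call without any one library but Cre-negative 48. The mTEC sums overlapped, at 22480 to 25687 and 24373 to 30224 normalized counts. Counts of 1, 0, 2 and 0 markers were lower among 10 of thymocytes, 4 of B cells, 5 of fibroblasts and 3 of endothelium, with 0 higher in each list and with overlapping sums. The thymocyte call was lost without any one library but Cre-positive 76, 1 thymocyte marker was higher without Cre-positive 80, and 1 of the 2 fibroblast calls was lost without any one library but Cre-negative 75 and Cre-positive 76. The B cell gene Cd79b was called higher by edgeR and DESeq2, and in limma without Cre-negative 77 or Cre-positive 45. None of the endothelial markers was called in any of the 17 alternative fits. None of the 7 microfold cell markers was called by limma with all libraries. DESeq2, and limma without Cre-positive 45, called 1 microfold marker higher.

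Genes of gastric epithelium, read because Ctse is known from there, were mostly lower as well. Of 5 such genes, Gkn1, Gkn2, Tff1, Pgc and Muc5ac, 4 were lower and 0 higher, against 9.11% and 4.66% of all tested genes. This list was chosen with earlier results of these data known. The sums of the 5 genes were 893.3 to 1269.5 normalized counts in Cre-negative and 119.2 to 346.7 in Cre-positive libraries, without overlap. Of all tested genes, 25.3% did not overlap. Tff1, a secreted peptide of the stomach lining, had 233.8, 316.2, 285.6 and 263.6 normalized counts in the Cre-negative libraries, against 8.4, 1.0 and 2.1 in the Cre-positive ones (log2 fold change -6.14, or -6.78 without Cre-positive 45, limma adjusted p = 3.70e-05). Like Ctse, Tff1 reached the minimum mean for testing through its Cre-negative values alone. The mucin gene Muc5ac was the 1 gene not called, at 55 to 171.6 and 56.4 to 221.1 normalized counts. Whether Ctse and these genes come from the same cells was not tested.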

How the data were processed

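SMART-seq RNA was measured in 7 libraries, grouped by the genotype in their labels. Per the submitters' processing notes, STAR 2.7.9a, DESeq2 and build GRCm39 were used; the sources used here name neither the counting tool nor its strand setting. The deposited table holds normalized counts per library, a signal that the authors obtained from gene counts with 1 size factor each, rounded to 1 decimal, per the file headers. It also holds the authors' log2 fold change, their linear fold ratio, their p-value and adjusted p-value, 7 columns of stabilized log2 values, which were not used, and the GC percent of each gene as deposited. Gene positions in the table equal GENCODE M21 (GRCm38) for 49909 of 52403 genes (95.24%) and are given on GRCm38.

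All values were whole multiples of what 1 read is worth, within 0.0501 normalized counts (100% of values per library), which gave the reads behind RPKM and CPM. The plan named edgeR for raw counts with a fallback for normalized values, which was used: limma, trended by intensity, on log2(normalized count + 1), for genes with a mean of at least 5, genotype only. Low genes are understated on this scale. Adjusted p-values are from limma unless another tool is named. edgeR's quasi-likelihood test, DESeq2 and limma-voom on the recovered reads, library total scaling, other added counts and minimum means, terms for label number range and Y-linked reads, and leaving out each library were the alternatives. On simulated data the fit made 4 false calls with 21920 genes tested. It called 11 of 100 changes of 2-fold and 46 of 99 changes of 4-fold. A far smaller share of genes changed in that simulation than the 13.8% called here, so its rates need not hold for these data. A gene not called may still have changed. Software comprised limma 3.58.1, DESeq2 1.42.0 and edgeR 4.0.16 in R 4.3.3, with numpy 2.4.6, scipy 1.17.1, pandas 2.3.3 and matplotlib 3.10.9 in Python 3.11.15.

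All members are named, with Epcam, Aire, Ikzf1 and Pou2f3, and at most 4 called genes per list by adjusted p; for marker lists fewer are printed. Pou2f3, null by label, had 17.6, 19.7, 1.8 and 27.9 normalized counts in the Cre-negative libraries, against 17.8, 0.0 and 4.2 in the Cre-positive ones. It was not called (limma, adjusted p = 0.413). The members and lists were chosen with earlier results of these data known. Catalytic windows are given for 8 members; the others are not reported here.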

Additional observations from a re-analysis of the deposited data

Results flagged for a closer look

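Groups of 4 libraries were checked for one far from the rest, so the 3 Cre-positive libraries were not. No member had such a Cre-negative library. Among the other named genes, 4 had a Cre-negative library standing apart from the other 3, by a gap above Dixon's 95% critical value. These were Atp6v1f in Cre-negative 48 (3214.0 normalized counts, the lowest), Glb1 in Cre-negative 77 (249.2, the lowest), H2-Ob in Cre-negative 77 (902.6, the lowest) and Igf2r in Cre-negative 77 (449.7, the highest). In all, 48 genes or ratios were checked, and chance gives about 1 in 20 groups.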

How the results depend on the processing

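No paired analysis was possible because the replicate numbers of the 2 genotypes share none. Ctsl, Ctsc and Ctse were called in the same direction in all 17 alternative fits, except that a minimum mean of 50 leaves Ctse untested and so 1 member lower. Without 1 library at a time, Ctss moved from -0.15 to 0.0761 and Ctsh from -0.54 to 0.0056, neither called. The log2 ratio of Ctsl to Ctss differed by 1.37 to 1.65 without 1 library (exact permutation p 0.0667 to 0.1, the smallest those designs allow). Of all tested genes, 1066 were higher and 2084 lower; library total scaling gave 583 and 2636, limma-voom 1352 lower, a minimum mean of 50 1274 lower, and leaving out 1 library 600 to 1008 higher and 1315 to 1759 lower. That scaling moved the median of all tested genes from -0.10 to -0.30, and relative to these medians Ctsl was at 1.56 under both and Ctsc at -1.98 under both. Over the pathway lists, 2 genes were higher with library total scaling, with no minimum and with the Y-linked term, 2 to 4 without 1 library, and 14 were lower with library total scaling. Of 627 refits of the 37 other named genes, 87 lost the call and 0 turned. Depth limits Ctse, at 4 reads or fewer in each Cre-positive library.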
